A study of Homo sapiens with 2 samples.

Results

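The 31 genes described here encode the enzymes that build cholesterol and fatty acids, the proteins that control those enzymes and a cholesterol carrier, STARD4. They were chosen by symbol, and all 31 had a row among the 25436 gene symbols of the table; SC5D, which makes a late double bond in the sterol ring, is listed under its older symbol SC5DL. Their levels were measured by RNA sequencing in HuES53 and HuES64, a pair of diploid human ES cell lines that were derived after in vitro fertilization. They were the controls of a study on haploid human ES cells. Each line was undifferentiated, was below passage 20 and gave 1 library of polyadenylated RNA; no treatment or genetic change is given for either. With 1 library per line there is no replicate error and no test: every difference below describes these 2 libraries, and no p-value is given.

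Cholesterol is built from acetyl-CoA in the cytosol and the endoplasmic reticulum. A first set of enzymes makes mevalonate, turns it into isoprenoid units and joins these into squalene, and a second set closes squalene into lanosterol and trims lanosterol to cholesterol. Fatty acid synthesis starts from the same acetyl-CoA, which is carboxylated, assembled into palmitate, lengthened and desaturated. Both routes are under the SREBP transcription factors: when membrane sterol is low, SCAP escorts SREBP from the endoplasmic reticulum to the Golgi for cleavage, and when sterol is high, the INSIG proteins hold SCAP back. SREBF2 encodes the factor that mainly serves cholesterol genes, and SREBF1 the one that mainly serves fatty acid genes.

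Levels are given as FPKM, in which fragments are scaled to transcript length and to the mapped fragments of the library, so that they can be compared between genes. A difference is log2(FPKM + 1) in HuES53 after subtraction of log2(FPKM + 1) in HuES64; a positive value means higher in HuES53, and the added 1 FPKM shrinks it, most of all for low genes. A gene counted as tested, that is compared, where its mean over both lines reached 1 FPKM; 13790 genes did, and all 31 lipid genes were among them. The number of fragments behind a value is unknown, so no counting interval is given. The summed FPKM was 601128 in HuES53 and 713421 in HuES64, which matters for the scaling described below.

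Both libraries carried the transcripts of pluripotent cells. Each of the 12 pluripotent cell markers was present, at 32.3 to 1053 FPKM in HuES53 and 17.1 to 1381 FPKM in HuES64, led by POU5F1 and TDGF1. Markers of other cell types were mixed, with most genes low and a few high. The 8 adipocyte markers summed to 3.41 FPKM in HuES53 and 2.88 FPKM in HuES64, with ADIPOQ and FABP4 listed at 0 in both lines. Among the 11 hepatic and yolk sac markers the sum was 398 FPKM in HuES53 and 378 FPKM in HuES64, most of it from APOA2 and APOA1, while ALB was near 0, with 0.0261 FPKM in HuES53 and a listed 0 in HuES64. The 11 fibroblast markers summed to 463 FPKM in each line, led by THY1 (243 FPKM in HuES53 and 227 FPKM in HuES64) and COL1A1. The sum rests on a few genes, as the median of the 11 was 2.55 FPKM in HuES53 and 2.96 FPKM in HuES64. The 9 neural markers summed to 9.94 FPKM in HuES53 and 12.2 FPKM in HuES64. The pluripotent cell markers had a median difference of 0.39, above the 0.19 of the 31 lipid genes. Once the GC and length trend described below was removed, these medians were 0.195 and 0.201. At least 1.5-fold higher in HuES53 were 3 of the 12 markers (LIN28B, ZFP42 and SALL4) and 9.22% of all genes tested. With the trend removed LIN28B (0.56) and ZFP42 (0.52) fell below that size, and SALL4 (0.81) did not. These 3 and the next 2 genes were chosen after their values were seen. AFP of the hepatic and yolk sac list stood at 7.25 FPKM in HuES53 and 1.53 FPKM in HuES64 (3.26-fold higher in HuES53), and COL3A1 of the fibroblast list at 3.08 FPKM in HuES53 and 8.00 FPKM in HuES64 (2.21-fold higher in HuES64). The part of these markers in the differences between the lines was not tested. In bulk RNA, fewer cells of a type and less RNA per cell cannot be told apart.

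The promoters of 6 members are shown because these genes mark the ends of the range: STARD4, HMGCS1, IDI1 and INSIG1 had the largest differences towards HuES53, TM7SF2 the largest towards HuES64, and SREBF2 encodes the factor that serves the pathway. The windows run from 250 bases before to 50 bases after a RefSeq transcription start, 5′ to 3′ on the gene's strand, in GRCh38.p14. Capitals mark matches to CCAAT, the box bound by NF-Y, to GGGCGG, the box bound by SP factors, or to TCACNCCAC, the core of the sterol response element, each sought on both strands. Where 2 matches to the same motif overlap, as in INSIG1, SREBF2 and IDI1, the capitals run together; no match overlapped one to another motif in these windows.
STARD4 (chr5:111512486-111512785, minus strand): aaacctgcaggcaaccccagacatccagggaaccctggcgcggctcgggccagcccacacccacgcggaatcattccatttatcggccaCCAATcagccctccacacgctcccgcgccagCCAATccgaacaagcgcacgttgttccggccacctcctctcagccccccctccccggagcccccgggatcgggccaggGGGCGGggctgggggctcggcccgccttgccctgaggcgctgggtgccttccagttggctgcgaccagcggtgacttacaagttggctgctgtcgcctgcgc
HMGCS1 (chr5:43313363-43313662, minus strand, 1 of 2 windows): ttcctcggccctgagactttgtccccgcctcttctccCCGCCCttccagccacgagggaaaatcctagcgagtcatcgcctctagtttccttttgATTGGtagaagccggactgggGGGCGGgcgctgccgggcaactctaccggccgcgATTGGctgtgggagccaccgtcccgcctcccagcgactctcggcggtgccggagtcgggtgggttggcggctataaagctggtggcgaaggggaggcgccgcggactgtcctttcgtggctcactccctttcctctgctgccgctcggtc
IDI1 (chr10:1048837-1049136, minus strand, 1 of 3 windows): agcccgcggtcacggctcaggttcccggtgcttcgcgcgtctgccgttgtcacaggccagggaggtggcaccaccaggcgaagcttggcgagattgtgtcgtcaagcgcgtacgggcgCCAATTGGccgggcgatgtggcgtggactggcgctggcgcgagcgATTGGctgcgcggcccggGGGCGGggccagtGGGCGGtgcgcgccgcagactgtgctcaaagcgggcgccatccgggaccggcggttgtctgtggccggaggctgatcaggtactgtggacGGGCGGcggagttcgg
INSIG1 (chr7:155297628-155297927, plus strand): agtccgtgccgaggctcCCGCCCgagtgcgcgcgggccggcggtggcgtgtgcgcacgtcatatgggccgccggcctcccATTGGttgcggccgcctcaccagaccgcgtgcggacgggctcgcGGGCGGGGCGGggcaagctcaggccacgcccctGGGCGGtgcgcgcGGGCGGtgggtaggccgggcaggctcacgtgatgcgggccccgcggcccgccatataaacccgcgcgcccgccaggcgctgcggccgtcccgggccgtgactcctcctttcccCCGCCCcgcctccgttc
TM7SF2 (chr11:65111622-65111921, plus strand): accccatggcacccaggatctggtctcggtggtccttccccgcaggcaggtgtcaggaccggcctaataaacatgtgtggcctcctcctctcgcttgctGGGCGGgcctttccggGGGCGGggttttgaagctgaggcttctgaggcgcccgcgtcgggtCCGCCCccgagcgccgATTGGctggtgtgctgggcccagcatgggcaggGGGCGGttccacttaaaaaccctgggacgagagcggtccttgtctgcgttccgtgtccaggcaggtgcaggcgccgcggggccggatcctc
SREBF2 (chr22:41832855-41833154, plus strand): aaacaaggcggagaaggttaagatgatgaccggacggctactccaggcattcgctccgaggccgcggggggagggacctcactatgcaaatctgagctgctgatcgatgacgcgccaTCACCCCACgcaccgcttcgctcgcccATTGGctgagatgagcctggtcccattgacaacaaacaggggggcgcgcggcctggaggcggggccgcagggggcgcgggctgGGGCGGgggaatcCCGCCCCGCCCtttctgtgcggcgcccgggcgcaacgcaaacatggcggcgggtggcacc

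CCAAT boxes were frequent among the lipid genes. A window was at hand for 28 of the 31 genes. Of these, 21 (75%) held CCAAT in at least 1 window, against 43.1% of 9274 tested genes and 39.7% of all 27195 genes with a window. GGGCGG was in 27 of 28 (96.4%), against 78.5% of tested genes and 48.4% of all genes. CCAAT was present in 8 of 9 genes of the squalene-to-cholesterol steps, 5 of 6 of the earlier steps, 5 of 7 fatty acid genes and 3 of 6 control genes. Here and below, the carrier STARD4 is counted with the control genes. Within a single window MVK and NSDHL had the most matches to CCAAT, with 5 each, and IDI1 had 5 over 2 overlapping windows. TCACNCCAC was found in SREBF2 alone, 133 bases before the start, and in 1.57% of tested genes and 1.39% of all genes. In STARD4 the CCAAT matches began 161 and 130 bases before the start, and in the HMGCS1 window shown 155 and 100 bases before it. TM7SF2, at the opposite end of the range of differences, also held 1 CCAAT, 74 bases before its start. A match is a run of letters and not a measured site, and no match says only that these letters are not in the window.

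As a group the 31 genes were well expressed in both lines. The median level was 36.7 FPKM in HuES53 and 30.8 FPKM in HuES64, and 24 genes reached 10 FPKM in both. In HuES53, 25 of them stood above the median of genes detected at 1 FPKM or more (11.1 FPKM), and 24 did so in HuES64 (10.7 FPKM). Those in the highest 10% of detected genes were 6 in HuES53 and 5 in HuES64. The order of levels was much the same in the lines, with Spearman's rho 0.94 across the 31 genes, and 23 of them moved by at most 2 places. FDFT1 stood first in each line. The largest shifts were TM7SF2, 17th in HuES53 and 8th in HuES64, and HMGCS1 and SCAP, which were 8th and 18th in HuES53 against 15th and 11th in HuES64.

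**Figure D1:**
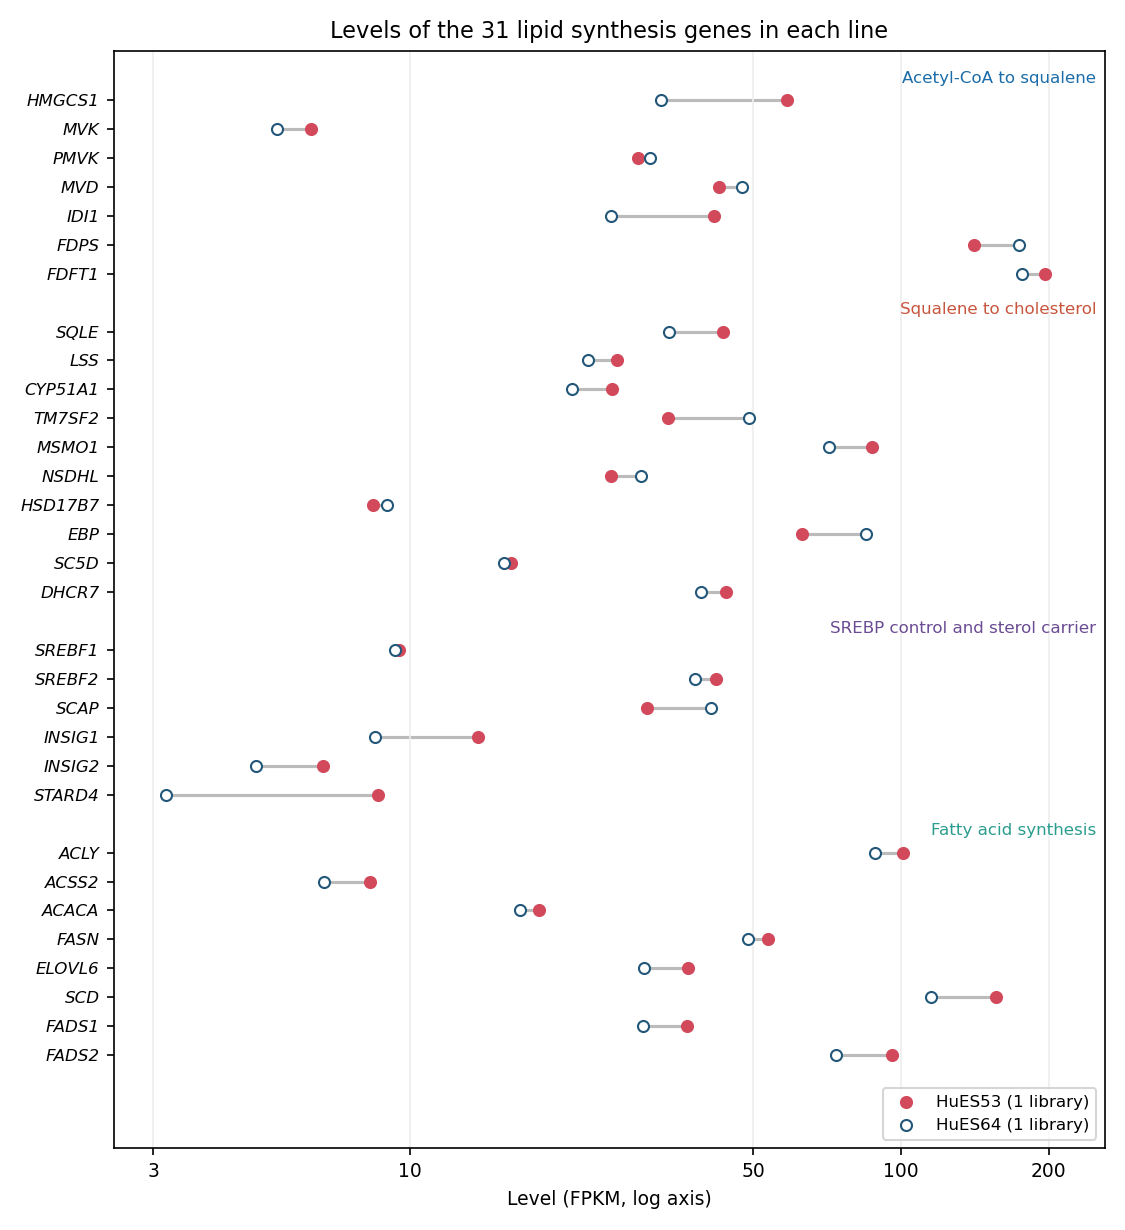
Level of each of the 31 genes (FPKM, log axis) in the HuES53 library (filled red points) and the HuES64 library (open blue points), joined by a grey line and grouped by role. Levels run from 3.19 FPKM (STARD4 in HuES64) to 196 FPKM (FDFT1 in HuES53), and the longest line is that of STARD4.

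Most of the genes stood slightly higher in HuES53. The difference was above 0 for 23 of 31 genes (74.2%), where 52.5% of all 13790 genes tested were above 0. The median was 0.19, against 0.03 for all genes. Large differences were few: 4 of 31 genes (12.9%) were at least 1.5-fold higher in HuES53, a share near the 9.22% of all genes, and none was as much higher in HuES64, where the background was 7.84%. At 2-fold the count was 1 (3.23%) in HuES53, where the background was 2.15%, and 0 in HuES64, where it was 1.7%. The remaining 27 genes lay within 1.5-fold. Scaling to TPM, which divides each library by its own sum, moved the median of all genes to 0.25. It put 27 of 31 lipid genes (87.1%) and 72.0% of all genes above 0. Relative to all genes the median of the 31 was 0.16 with the deposited values and 0.18 with TPM.

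The steps from acetyl-CoA to squalene held both the highest and some of the most different genes. HMGCS1 encodes the synthase that makes HMG-CoA, the precursor of mevalonate, and lies at chr5:43289493-43313595 in the build of the table, which is not given in the sources used here. It stood at 58.6 FPKM in HuES53 and 32.4 FPKM in HuES64, 1.78-fold higher in HuES53 with the added FPKM (difference 0.83, above 96.2% of all genes tested). IDI1, the isomerase that turns isopentenyl diphosphate into its reactive isomer, stood at 41.6 FPKM in HuES53 and 25.7 FPKM in HuES64 (1.60-fold higher in HuES53, difference 0.68). These were the only members of this segment past 1.5-fold. The locus of IDI1 overlaps IDI2-AS1 over 45.9% of its length, and no strand setting is given, but that gene stood at only 0.972 FPKM in HuES53 and 1.07 FPKM in HuES64.

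The enzymes between and after these were closer to level. Mevalonate kinase, MVK, was the lowest gene of the segment, at 6.30 FPKM in HuES53 and 5.35 FPKM in HuES64. PMVK, the next kinase, stood at 29.2 FPKM in HuES53 and 30.8 FPKM in HuES64, and MVD, the decarboxylase that follows it, at 42.6 FPKM in HuES53 and 47.5 FPKM in HuES64. Their differences were 0.20, -0.07 and -0.15; with TPM scaling those of PMVK (0.17) and MVD (0.09) turned positive. FDPS makes farnesyl diphosphate, the branch point to cholesterol, ubiquinone, dolichol and prenylated proteins. It stood at 141 FPKM in HuES53 and 174 FPKM in HuES64, a difference of -0.30 that was -0.06 with TPM scaling. FDFT1, which joins farnesyl units into squalene and commits them to sterols, stood at 196 FPKM in HuES53 and 176 FPKM in HuES64, with a difference of 0.15. Within HuES53 the level of FDPS was 2.40 times that of HMGCS1, and within HuES64 it was 5.36 times. GENCODE 29 names 8 pseudogenes of FDPS, so some of its fragments could stem from, or be lost to, near-identical copies. It names 3 for CYP51A1, 2 for HSD17B7 and 1 each for SCD and FADS2. Besides IDI1, STARD4 and SCD, 6 members (FDPS, CYP51A1, SREBF1, SREBF2, ACACA and FADS1) overlap other genes of the table, none of them above 1.17 FPKM in either line.

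From squalene to cholesterol the genes were split. SQLE, squalene epoxidase, a rate-limiting enzyme of the late pathway, stood at 43.5 FPKM in HuES53 and 33.8 FPKM in HuES64. With the deposited values its difference of 0.36 was the largest of this segment towards HuES53. With the GC and length trend removed DHCR7 (0.41) stood above SQLE (0.18), as it did by the longest transcript (0.39 against 0.34). MSMO1, which starts the removal of methyl groups at carbon C4 of the sterol ring, stood at 87.4 FPKM in HuES53 and 71.3 FPKM in HuES64. CYP51A1, the lanosterol demethylase, stood at 25.8 FPKM in HuES53 and 21.4 FPKM in HuES64. LSS, which folds the epoxide into lanosterol, stood at 26.4 FPKM in HuES53 and 23.0 FPKM in HuES64, and DHCR7, which reduces the last double bond in one of the branches to cholesterol, at 44.0 FPKM in HuES53 and 39.2 FPKM in HuES64. With the deposited values all 5 lay between 0.16 and 0.36, and none reached 1.5-fold.

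Lower in HuES53 were 4 of the 10 genes of this segment. TM7SF2, a sterol C14 reductase of the endoplasmic reticulum (chr11:64879341-64883707), stood at 33.5 FPKM in HuES53 and 48.9 FPKM in HuES64, 1.45-fold higher in HuES64 (difference -0.53). Only 9.86% of all genes tested had a lower difference. EBP, the isomerase that shifts a ring double bond, stood at 62.8 FPKM in HuES53 and 84.9 FPKM in HuES64 (1.35-fold higher in HuES64, difference -0.43). These remained negative with TPM scaling, at -0.29 for TM7SF2 and -0.19 for EBP. NSDHL, a dehydrogenase of the demethylation steps, stood at 25.6 FPKM in HuES53 and 29.6 FPKM in HuES64, and HSD17B7, the reductase that completes them, at 8.43 FPKM in HuES53 and 8.97 FPKM in HuES64. Their differences of -0.20 and -0.08 became 0.04 and 0.15 with TPM scaling. One pseudogene of HSD17B7 has a row of its own, HSD17B7P2, at 0.981 FPKM in HuES53 and 1.20 FPKM in HuES64. SC5D was level, at 16.1 FPKM in HuES53 and 15.5 FPKM in HuES64. The summed level of the 10 genes was 374 FPKM in HuES53 and 377 FPKM in HuES64, nearly equal in the lines.

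The largest difference of all lay in the list of control genes, at the carrier counted with them. STARD4, a carrier that moves cholesterol between membranes (chr5:110834022-110848157), stood at 8.61 FPKM in HuES53 and 3.19 FPKM in HuES64. It was 2.29-fold higher in HuES53 with the added FPKM and 2.70-fold as a plain ratio (difference 1.20, above 98.7% of all genes tested). It was the lowest of the 31 genes in HuES64 and 27th in HuES53. The locus overlaps LOC100505678 over 1.66% of its length, and that gene stood at 1.16 FPKM in HuES53 and 0.495 FPKM in HuES64. INSIG1, the sterol-sensing retention protein whose gene is itself a target of SREBP, lies at chr7:155089486-155101945. It stood at 13.8 FPKM in HuES53 and 8.48 FPKM in HuES64 (1.56-fold, difference 0.64). INSIG2, the paralog with the same role, stood at 6.66 FPKM in HuES53 and 4.87 FPKM in HuES64 (difference 0.39). INSIG1 was thus 2.07 times INSIG2 in HuES53 and 1.74 times in HuES64.

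The SREBP genes themselves were nearly level with the deposited values. With TPM scaling their differences were 0.39 (SREBF2) and 0.26 (SREBF1), where the median of all genes was 0.25. After removal of the GC and length trend they were 0.36 (SREBF2) and 0.37 (SREBF1), where the median of all genes was 0.04. With that trend taken by the longest transcript they were 0.19 (SREBF2) and 0.24 (SREBF1). SREBF2 stood at 42.1 FPKM in HuES53 and 38.1 FPKM in HuES64 (difference 0.14), and SREBF1 at 9.51 FPKM in HuES53 and 9.34 FPKM in HuES64 (difference 0.02). SREBF2 was the more abundant in both lines, at 4.42 times SREBF1 in HuES53 and 4.08 times in HuES64. SCAP, the escort, differed in the opposite sense, with 30.4 FPKM in HuES53 and 41.1 FPKM in HuES64 (1.34-fold higher in HuES64, difference -0.42, and -0.18 with TPM scaling). The level of INSIG1 per SCAP was 0.453 in HuES53 and 0.206 in HuES64. These are transcript levels; SREBP activity depends on cleavage and was not measured.

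Fatty acid genes were each slightly higher in HuES53. All 8 had a difference above 0 with the deposited values and with upper quartile, median-of-ratios and TPM scaling, although ACACA and ELOVL6 lay below 0 (-0.11 and -0.03) once a GC and length trend had been removed by each gene's longest transcript. They spanned 0.12 to 0.44 with a median of 0.28, the highest of the 4 roles with the deposited values, and none reached 1.5-fold. Their summed level was 507 FPKM in HuES53 and 410 FPKM in HuES64. With the deposited values ACACA, FASN and ACLY differed least. ACLY, which makes cytosolic acetyl-CoA from citrate, stood at 101 FPKM in HuES53 and 88.4 FPKM in HuES64. ACACA, the carboxylase, stood at 18.3 FPKM in HuES53 and 16.8 FPKM in HuES64, and FASN, fatty acid synthase, at 53.6 FPKM in HuES53 and 48.8 FPKM in HuES64. FASN was 2.92 times ACACA in HuES53 and 2.91 times in HuES64. ACSS2, which makes acetyl-CoA from acetate, was far below ACLY, at 8.29 FPKM in HuES53 and 6.68 FPKM in HuES64.

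With the deposited values, the enzymes that lengthen and desaturate fatty acids differed a little more. Once the GC and length trend was removed, they overlapped the earlier enzymes. FADS2 (0.59), FADS1 (0.48), SCD (0.10) and ELOVL6 (0.08) then stood against FASN (0.56), ACSS2 (0.41), ACLY (0.28) and ACACA (0.11). They overlapped by the longest transcript too, where SCD (0.25) stood above FASN (0.22) and ACLY (0.17) but below ACSS2 (0.41). SCD, the stearoyl-CoA desaturase that makes oleate, stood at 156 FPKM in HuES53 and 115 FPKM in HuES64 (1.35-fold, difference 0.44). A locus listed within SCD, LOC100652751, spans 5.40% of it and stood at 21.5 FPKM in HuES53 and 1.06e-05 FPKM in HuES64, so fragments of SCD and of this locus cannot be told apart. FADS2 and FADS1, the neighbouring desaturases of polyunsaturated fatty acids, stood at 96.1 and 36.7 FPKM in HuES53 against 73.9 and 29.8 FPKM in HuES64. Their differences were 0.37 and 0.29, and FADS2 was 2.62 times FADS1 in HuES53 and 2.48 times in HuES64. ELOVL6, which lengthens palmitate, stood at 36.8 FPKM in HuES53 and 30.0 FPKM in HuES64 (difference 0.29).

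**Figure D2:**
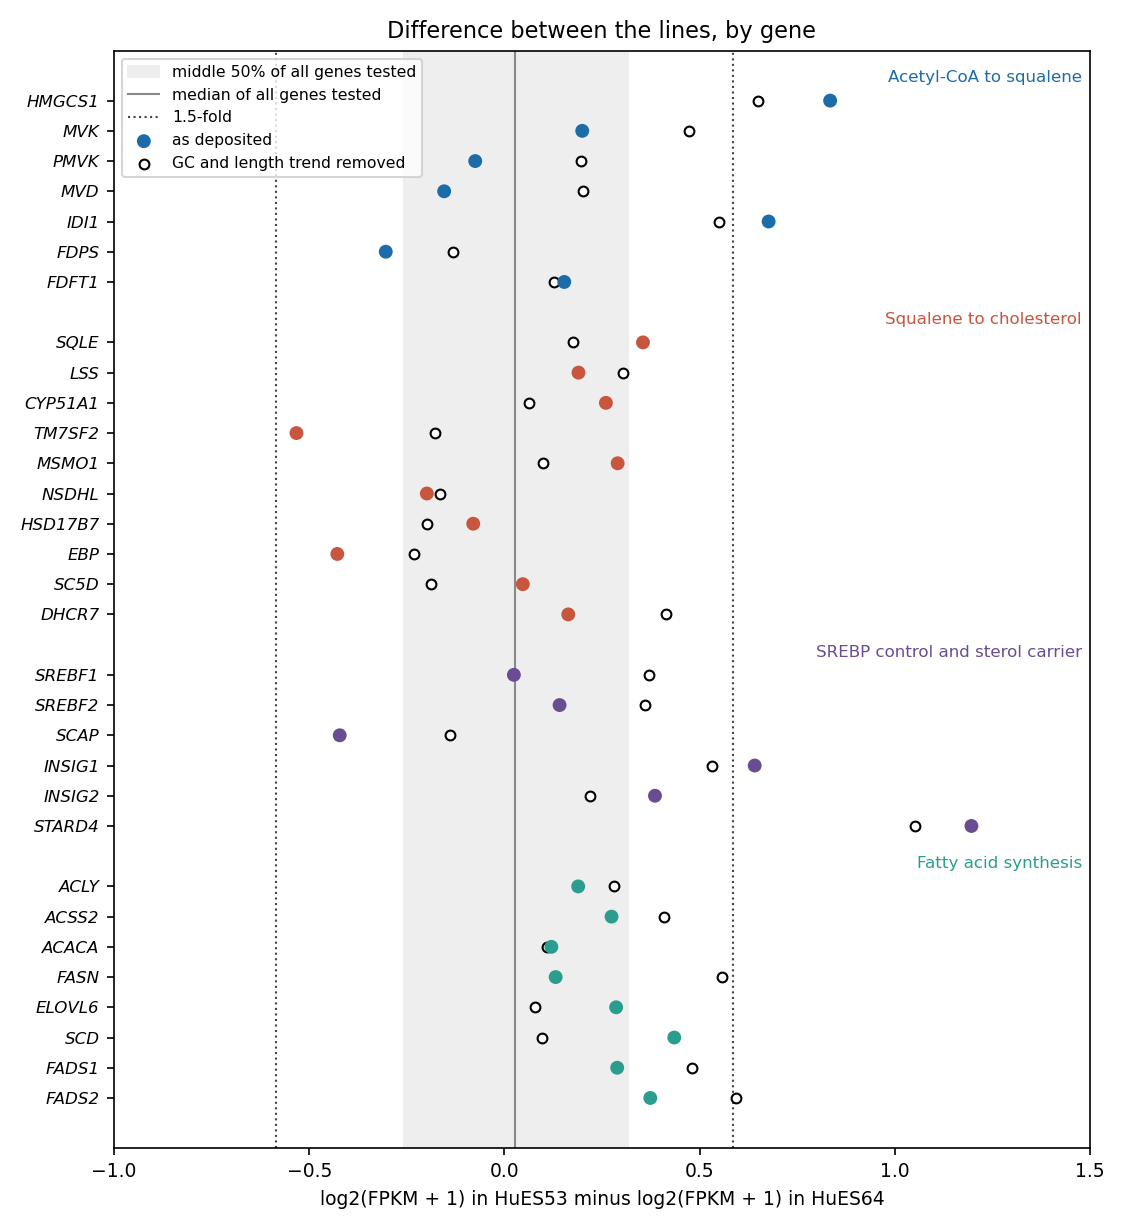
Difference between HuES53 and HuES64 in log2(FPKM + 1) for each gene by role (filled points) and the same after removal of the GC and length trend (open points); the grey band holds the middle 50% of all 13790 genes tested (-0.26 to 0.32). STARD4, HMGCS1, IDI1 and INSIG1 lie past the dotted 1.5-fold line with the deposited values, all 8 fatty acid genes lie right of 0, and TM7SF2, EBP and SCAP lie farthest left.

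GC content ran in parallel with these differences. Over the 12949 tested genes with a GENCODE 29 transcript, the difference was lower the higher the GC content (Spearman's rho -0.49, across genes of the same 2 libraries). The 31 lipid genes showed it too, with rho -0.55. The 4 genes past 1.5-fold had a median transcript GC content of 40.6% (STARD4) to 46.4% (INSIG1), while TM7SF2, SCAP and EBP had 62.7%, 59.4% and 55.7%. Differences were therefore also taken after the median trend over GC content and transcript length had been subtracted, which left a rho of 0.14 among the 31 genes.

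**Figure D3:**
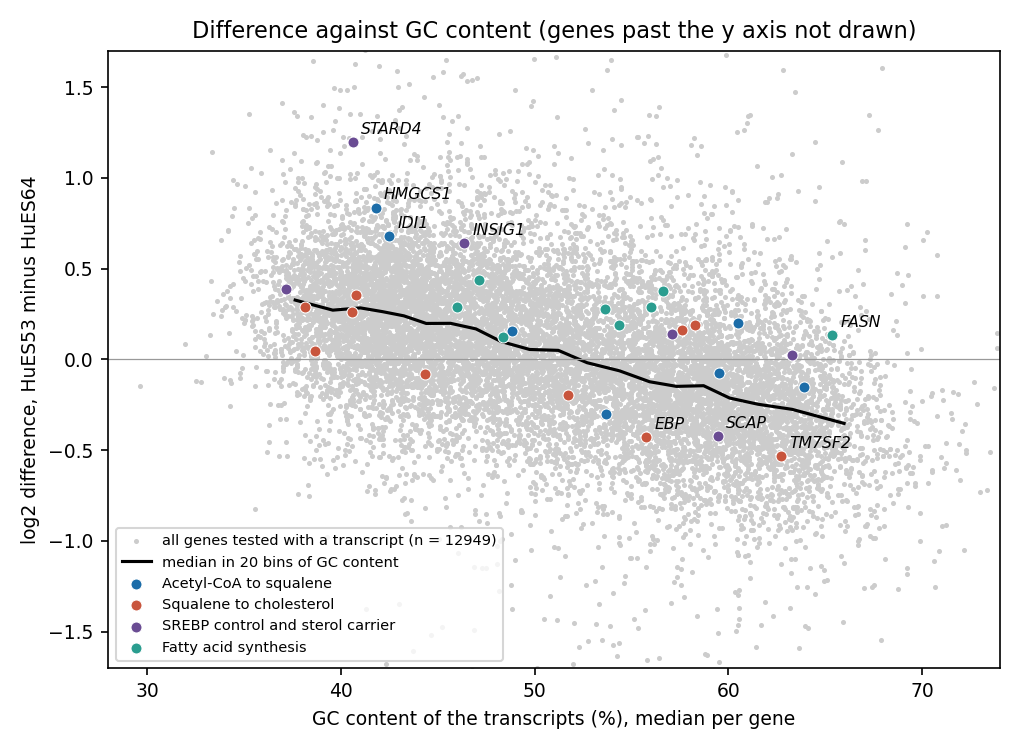
Difference between HuES53 and HuES64 against the median GC content of each gene's transcripts, for 12949 tested genes (grey) and the 31 lipid genes (coloured by role), with the running median of all genes in black. STARD4, HMGCS1, IDI1 and INSIG1 lie above the black line at low GC content, and FASN lies well above it at high GC content.

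With the trend removed, most of the larger differences among the sterol genes were smaller, and all 8 fatty acid genes were still above 0. STARD4 (1.05) and HMGCS1 (0.65) were still at least 1.5-fold higher in HuES53, whereas IDI1 (0.55) and INSIG1 (0.53) lay just under that size. FADS2 (0.59) passed it, and FASN was close, at 0.56. Which genes passed depended on the transcript used. By the longest transcript INSIG1 passed, at 0.587, and FADS2 (0.41) and FASN (0.22) did not. With the median over transcripts the count past 1.5-fold was 3 of 31 (9.68%) in HuES53, where 7.14% of 12949 genes passed. The count was 0 in HuES64, where 4.38% passed. At 2-fold it was 1 in HuES53, STARD4, where the background was 1.85%, and 0 in HuES64, where it was 1.14%. TM7SF2 (-0.18), EBP (-0.23) and SCAP (-0.14) kept their sign and were smaller. Of the 31 genes, 24 (77.4%) were above 0, against 54.5% of all genes. The median was 0.34 for the 8 fatty acid genes, all of them above 0, and 0.37 for the 6 control genes. It was 0.20 for the first segment of cholesterol synthesis, where 6 of 7 were above 0. It was -0.05 for the second, with 5 of 10 above 0. The longest-transcript trend gave medians of 0.22 (fatty acid genes), 0.21 (control genes), 0.28 (first segment) and 0.043 (second segment).

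Other genes of sterol and fatty acid metabolism were described in the same way, to show where the 31 genes stand among them. The list of 10 genes for SREBP cleavage and turnover had 9 of 10 above 0 and a median of 0.24, where all genes tested had 52.5% above 0 and a median of 0.03. With the GC and length trend removed, its median was 0.19, with 8 of 10 above 0. By the longest transcript the median of this list was 0.044, close to the 0.04 of all genes. MBTPS2, a membrane protease that releases the SREBP factor, stood at 6.91 FPKM in HuES53 and 3.38 FPKM in HuES64 (1.81-fold). Its difference of 0.85 was 0.43 with the trend removed. The coat proteins of the vesicles that carry SCAP and SREBP, SEC24D (36.5 FPKM in HuES53 and 26.7 FPKM in HuES64) and SEC23A (35.6 FPKM in HuES53 and 23.8 FPKM in HuES64), were higher in HuES53 as well. Among 9 other sterol enzymes, 6 were above 0 and the median was 0.22, but -0.055 over the 5 whose loci overlap no other gene. LBR, a nuclear envelope protein with the same reductase activity as TM7SF2, differed in the opposite direction to it, at 33.9 FPKM in HuES53 and 18.5 FPKM in HuES64 (1.79-fold). EBPL, a relative of EBP, was lower in HuES53, as EBP was, at 72.7 FPKM in HuES53 against 89.5 FPKM in HuES64.

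Lists outside these steps were mixed. Genes of sterol uptake and transport had a median of 0.17 over 16 members, 10 of them above 0. This median was 0.21 with the trend removed and 0.046 by the longest-transcript trend. NPC2, which passes cholesterol out of lysosomes, stood at 172 FPKM in HuES53 and 287 FPKM in HuES64, and SOAT1, which stores cholesterol as esters, at 3.88 FPKM in HuES53 and 1.45 FPKM in HuES64. Sterol efflux and LXR target genes had a median of 0.01 over 8 members. It was 0.26 with the trend removed and 0.16 by the longest-transcript trend. APOE, an apolipoprotein gene, was by far the highest there, at 724 FPKM in HuES53 and 1023 FPKM in HuES64, and LPCAT3, second by the mean of both lines, stood at 31.1 FPKM in HuES53 and 27.0 FPKM in HuES64. NR1H3, an oxysterol receptor gene, stood at 13.8 FPKM in HuES53 and 23.1 FPKM in HuES64, while MYLIP stood at 12.7 FPKM in HuES53 and 8.57 FPKM in HuES64. The differences of APOE, LPCAT3, NR1H3 and MYLIP were -0.50, 0.20, -0.71 and 0.52. With the trend removed they were -0.05, 0.29, -0.49 and 0.40. The isoprenoid branches had a median of 0.06, with 8 of 14 above 0. RABGGTB and FNTA, subunits of enzymes that attach isoprenoids to proteins, led that list, at 61.0 and 51.9 FPKM in HuES53 against 64.5 and 56.0 FPKM in HuES64. PDSS2, a gene of ubiquinone synthesis, stood at 7.34 FPKM in HuES53 and 4.66 FPKM in HuES64, and FNTB at 1.47 FPKM in HuES53 and 0.731 FPKM in HuES64.

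Among 22 other genes of fatty acid synthesis and activation, 13 were above 0, with a median of 0.16. This median was 0.070 with the trend removed and 0.054 by the longest-transcript trend. ACSL1 and PTPLB were past 2-fold towards HuES53, as were 2.15% of all genes tested. With the trend removed ACSL1 (1.30) was still past it, and PTPLB (0.89) was not. ACSL1, which activates fatty acids as CoA esters, stood at 15.6 FPKM in HuES53 and 4.67 FPKM in HuES64 (2.93-fold). PTPLB, a dehydratase of fatty acid elongation, stood at 6.57 FPKM in HuES53 and 2.59 FPKM in HuES64 (2.11-fold). ACOT7, a thioesterase, and SLC25A1, the mitochondrial citrate carrier, had the highest means over both lines in that list. They stood at 116 and 88.1 FPKM in HuES53 and at 128 and 121 FPKM in HuES64. With the trend removed the difference of ACOT7 went from -0.14 to 0.06, and that of SLC25A1 from -0.46 to -0.05. Glycerolipid synthesis had a median of -0.02 over 21 members. Its highest means over both lines were those of AGPAT1 (83.9 FPKM in HuES53 and 97.5 FPKM in HuES64) and PTDSS1 (31.8 FPKM in HuES53 and 32.4 FPKM in HuES64). PCYT1A, a gene of phosphatidylcholine synthesis, stood at 11.1 FPKM in HuES53 and 6.95 FPKM in HuES64, and GPAM, which starts glycerolipid synthesis, at 4.84 FPKM in HuES53 and 2.96 FPKM in HuES64. Fatty acid oxidation, the route opposite to synthesis, had a median of -0.06, with 10 of 21 above 0. Its median was 0.0097 with the trend removed and 0.12 by the longest-transcript trend. ACADVL stood at 95.1 FPKM in HuES53 and 141 FPKM in HuES64, ECHS1 at 101 FPKM in HuES53 and 118 FPKM in HuES64, and EHHADH at 7.73 FPKM in HuES53 and 4.42 FPKM in HuES64. CPT1B, the only oxidation gene past 2-fold, stood at 7.14 FPKM in HuES53 and 16.4 FPKM in HuES64 (2.14-fold higher in HuES64). With the trend removed its difference was -0.88, less than 2-fold. The loci of MBTPS2, NPC2, MYLIP, NR1H3, FNTB, RABGGTB, ACSL1, ACOT7, AGPAT1, CPT1B, ACADVL, ECHS1 and EHHADH overlap other genes of the table, so their values are less certain. None of these differences between lists was tested.

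**Figure D4:**
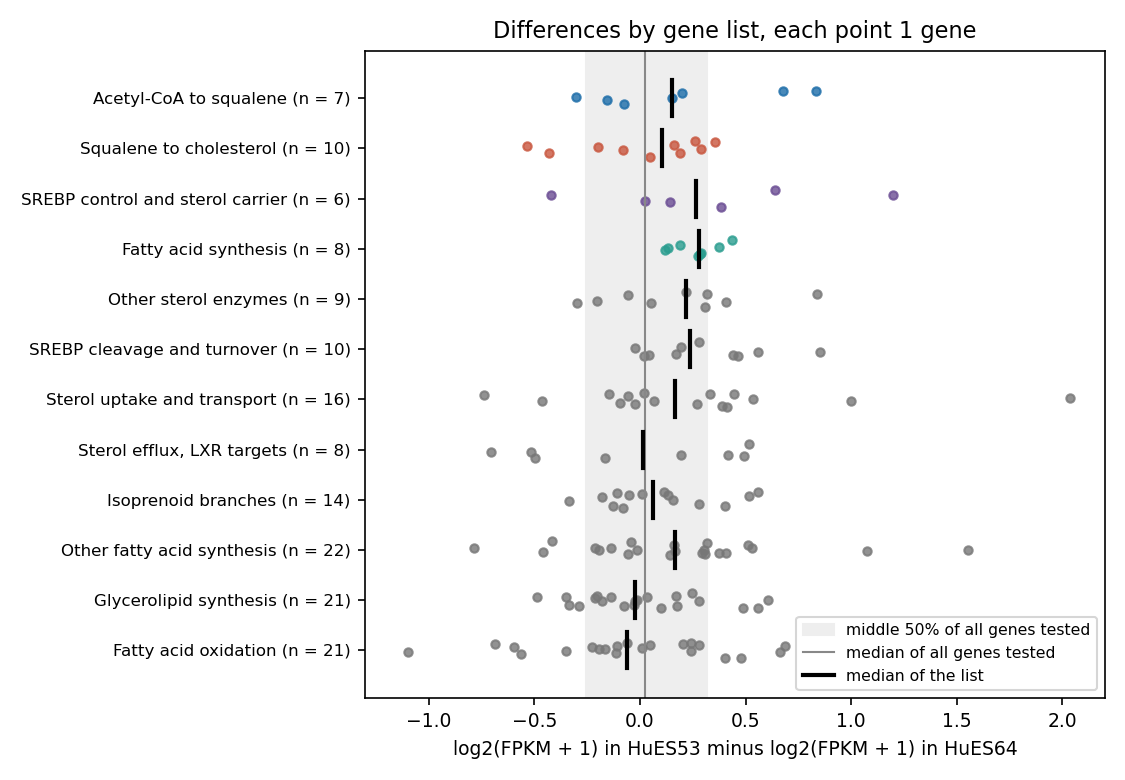
Difference between HuES53 and HuES64 in log2(FPKM + 1), 1 point per gene, for the 4 roles of the 31 genes (coloured) and 8 lists of related genes (grey), with the median of each list as a black bar and the middle 50% of all genes as the grey band. All 8 fatty acid synthesis genes lie above 0 within a narrow range, whereas the fatty acid oxidation genes run from -1.10 to 0.69 about a median of -0.06.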

How the data were processed

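The authors deposited a table of FPKM values with 1 column per line; TopHat2 2.0.4 and Cufflinks 2.0.2 are named, without their roles, per the submitters' processing notes. Per the labels' protocols, poly(A) RNA went into Illumina TruSeq libraries. For genome build, annotation, strand setting and read filters: not given in the sources used here. Rows on chromosome Y (136) were not used, and rows sharing a symbol (21 symbols) were summed. Loci in the table were read as counting from 0 and are printed counting from 1. FPKM are no counts, so no count test was run. Differences used a pseudocount of 1 FPKM and a mean of at least 1 FPKM. The GC and length trend was removed by subtracting medians over 20 bins of each property in 5 rounds, using the median over a gene's GENCODE 29 transcripts (93.9% of tested genes, all 31 members, matched by symbol or RefSeq synonym). Promoter windows came from RefSeq. Scripts used Python 3.11.15, numpy 2.4.6 and pandas 2.3.3 and were tested on simulated data. Members and lists were chosen with earlier results of these data known. Named are all members; of each related list the 2 highest genes, the 2 with the largest difference and any gene 2-fold different. Some genes that this rule would name are not reported here. Protein comparisons of paralogs were not run. The alternatives tried were no filter or a stricter one (mean of 5 FPKM or more), a smaller pseudocount (0.1 or 0.5 FPKM), 3 further scalings, the highest row of a repeated symbol, the trend removal, and leaving out overlapping loci; the trend by the longest transcript was added after seeing the data.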

Additional observations from a re-analysis of the deposited data

How the results depend on the processing

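No paired analysis was possible because each line has 1 library, and none could be left out. Over 11 alternatives, 19 of the 31 genes stayed above 0 throughout and 3 (TM7SF2, EBP and SCAP) below 0; HMGCS1 and STARD4 stayed at least 1.5-fold higher in HuES53 in every setting that held them. The median of all 31 genes lay at 0.16 to 0.22 except with TPM scaling. A move of less than 0.1 in a median, or of up to 1.5 times in a count, is not listed, except as background to a count of lipid genes. TPM scaling gave medians of 0.25 for all genes, 0.43 for the 31 genes, 0.40 for the steps to squalene, 0.35 for the later sterol steps, 0.51 for the control genes and 0.52 for fatty acid synthesis. For the related lists it gave 0.46 (other sterol enzymes), 0.47 (SREBP cleavage), 0.41 (uptake), 0.26 (efflux), 0.30 (isoprenoid branches), 0.40 (other fatty acid synthesis), 0.21 (glycerolipids) and 0.17 (oxidation). With TPM scaling 8 of the 31 genes were at least 1.5-fold and 2 at least 2-fold higher in HuES53. Of all 13790 genes, 3175 and 720 were so. With the deposited values these counts were 4 and 1 of the 31, and 1271 and 297 of the 13790, so they rose among all genes too. At least 1.5-fold higher in HuES64 were 533 of all genes with TPM scaling. Removing the GC and length trend turned the later sterol steps to -0.051, a reversal not seen by the longest transcript (0.043). The removal gave 0.37 for the control genes and 0.26 for efflux, and left 567 and 148 genes at 1.5-fold and 2-fold higher in HuES64. By the longest transcript the medians were 0.28 (steps to squalene), 0.044 (SREBP cleavage), 0.046 (uptake), 0.16 (efflux), 0.054 (other fatty acid synthesis) and 0.12 (oxidation), with 827 genes at 1.5-fold higher in HuES53, 472 and 122 at 1.5-fold and 2-fold in HuES64, and 0 of the 31 genes at 2-fold, STARD4 being at 0.91. Leaving out overlapping loci, and with them 9 of the 31 genes, gave 0.39 for the control genes, 0.020 for uptake and -0.055 for the 5 other sterol enzymes left. Of the 22 lipid genes left, 15 were above 0, where 52.5% of all genes were with those loci kept. At least 1.5-fold higher in HuES53 were 2 of the 22 (HMGCS1 and INSIG1), against 941 of the 10053 genes left. At 2-fold the count was 0 of the 22, against 208 of the 10053. Higher in HuES64 by 1.5-fold and 2-fold were 708 and 142 of the 10053. With the stricter filter of 5 FPKM the medians were 0.064 (uptake) and -0.17 (efflux), and 4762, 700 and 161 genes were above 0, 1.5-fold and 2-fold higher in HuES53. With no filter the efflux median was 0.18. A pseudocount of 0.1 FPKM gave 585 and 405 genes at 2-fold higher in HuES53 and HuES64. Except where fewer genes were left, the cause was not tested. The depth of the libraries is unknown, which limits the low genes most.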
